A study of Homo sapiens with 6 samples.

Results

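MAP kinase phosphatases remove phosphate from the threonine and the tyrosine that switch on the MAP kinases ERK, JNK and p38, and so turn these kinases off. Most are also products of the pathways they restrain, which makes their transcripts a common readout of MAP kinase signaling, and in colorectal cancer cells that depend on ERK signaling several of them are made continuously. The nuclear members DUSP1, DUSP2, DUSP4 and DUSP5 are immediate early or early response genes, DUSP6 and DUSP7 are cytoplasmic phosphatases with a preference for ERK, DUSP8, DUSP10 and DUSP16 act mainly on JNK and p38, and DUSP14 is a small atypical member without the kinase-binding domain of the others. The group examined here is the 10 genes just named. They were chosen by symbol, and all 10 were in the table of 12982 genes and were tested.

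The cells were SW480, an established human colon adenocarcinoma line recorded as wild type (WT), grown in DMEM with serum. They were given either the solvent DMSO or MPM-1, a mitochondrial fluorescent probe that the labels also call WT4, and RNA was collected after 24 h. There were 3 libraries of each kind, and the dose of MPM-1 is not given in the sources used here. One cell line was used, and nothing in the labels says whether the 3 libraries came from separate cultures, so the p-values measure only the spread between these libraries.

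The libraries held 31733667 to 40269820 counts, and each count of 3 corresponded to 0.0695 to 0.0985 CPM. CPM denotes depth-scaled counts after edgeR's TMM scaling, and FPKM denotes the deposited fragment count scaled to transcript length and library size, which is used wherever levels of different genes are compared. The first principal component (72.8% of the variance) separated the treatments. On the second (9.48%), MPM-1 replicate 1 stood at 33.1 and the other MPM-1 libraries at -25.2 and -12.3, so this library is followed below. All 7 colon epithelial markers were in the table, at a summed 3651 to 4108 FPKM in DMSO and 4818 to 5179 FPKM after MPM-1, and most of this sum was KRT8 and KRT18 (means of 2124 and 1234 FPKM in DMSO). The intestinal markers CDX2 and KRT20 fell by 2.20 and 2.03 on the log2 scale, and VIL1 was at -0.88 with all MPM-1 libraries below DMSO. CDH1, KRT18 and KRT8 were at 0.82, 0.89 and 0.42, with all MPM-1 libraries above DMSO. EPCAM overlapped between treatments, so the markers did not move in 1 direction. Of the fibroblast, leukocyte and endothelial markers, only COL1A1 and CD14 were in the table, with summed levels of at most 0.510 and 5.37 FPKM, and both fell.

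Calls required both an adjusted p under 0.01 in edgeR's quasi-likelihood test (Benjamini-Hochberg over all genes) and a log2 fold change of 1 or more in either direction. By this rule DUSP1, DUSP5 and DUSP8 rose and DUSP6 fell after MPM-1, so 4 of the 10 were called. The share called among all genes was 14.3% (5.58% higher and 8.75% lower). When the fold was disregarded and the adjusted p limit was 0.05, 4 members were higher and 3 lower, where 56.5% of all genes passed (27.7% higher and 28.8% lower). The MPM-1 libraries lay wholly above the DMSO libraries in 4 members and wholly below them in 3, and 64.3% of all genes were separated in this way (31% above and 33.3% below). The members' 7 of 10 by either of these counts is thus near the share of all genes. The median log2 fold change was 0.28 over the members and -0.026 over all genes. In bulk RNA, fewer cells with a transcript and less transcript per cell cannot be told apart.

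**Figure D1:**
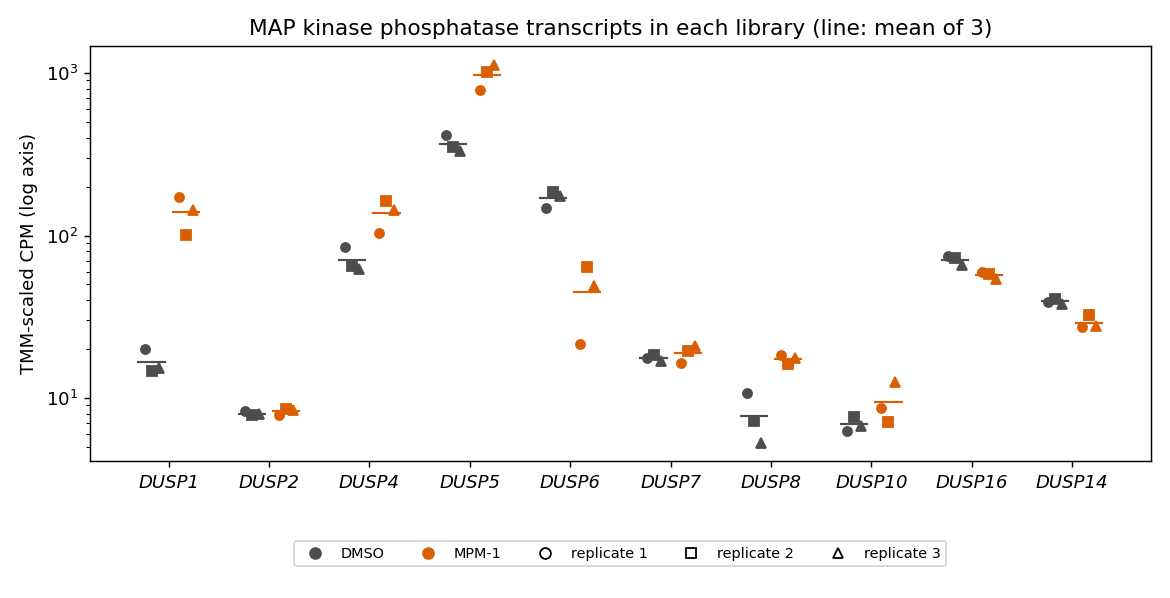
TMM-scaled CPM (log axis) of each member in each of the 6 libraries, with DMSO in grey, MPM-1 in orange, a symbol per replicate and a line at the mean of 3. DUSP1, DUSP4, DUSP5 and DUSP8 have all MPM-1 points above all DMSO points, whereas DUSP6, DUSP14 and DUSP16 have them below.

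Among the inducible nuclear phosphatases, DUSP1 showed the largest response of the family. DUSP1 (ENSG00000120129, GRCh38 chromosome 5, 172768090 to 172771195, minus strand, 4 exons) encodes MKP-1, which acts on p38 and JNK and also on ERK. Its level was 20.0, 14.7 and 15.3 CPM in DMSO replicates 1 to 3 and 173, 101 and 144 CPM in the MPM-1 libraries. The lowest MPM-1 library was thus far above the highest DMSO library. The log2 fold change was 3.07 with a standard error of 0.20 (adjusted p = 2.99e-06 by edgeR), an 8.37-fold rise that ranked 49 among the 12982 genes. MPM-1 replicate 1, which had the highest DUSP1, did not decide this result, since the log2 fold change without it was 2.90.

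The promoter of DUSP1 is shown because it is one of only 2 in the family that held a complete cyclic AMP response element, the site bound by CREB and ATF proteins. RefSeq promoters (GRCh38.p14, 250 bases before to 50 after the start) were at hand for 8 of the 10 members, all but DUSP4 and DUSP5. They were searched on both strands for TGACGTCA (the cyclic AMP response element), TGANTCA (AP-1), TGATGNAA (the ATF4 element), CCGGAAGT (ETS) and the CArG box of serum response factor, and none of these 5 patterns contains another. The response element lay at -125 in DUSP1 and at -118 and -74 in DUSP8, counted to its first base from the start site. Over 35114 promoters of the same length, 1.85% held it. No other member and no other pattern gave a match, which says only that these letters are not in these windows. The shares of all promoters with the other patterns were 7.71% for AP-1, 3.62% for the ATF4 element, 4.14% for ETS and 1.29% for the CArG box. The windows of the 2 promoters with a match and of DUSP6, the member that fell, are printed 5′ to 3′ on the minus strand, with the response element in capitals.
DUSP1 (chr5:172771146-172771445): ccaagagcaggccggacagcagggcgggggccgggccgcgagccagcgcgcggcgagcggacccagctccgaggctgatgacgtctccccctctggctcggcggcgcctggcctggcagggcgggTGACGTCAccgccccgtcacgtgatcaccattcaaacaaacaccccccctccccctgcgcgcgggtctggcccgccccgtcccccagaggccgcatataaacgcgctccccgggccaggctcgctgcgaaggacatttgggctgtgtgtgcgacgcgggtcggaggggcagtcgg
DUSP8 (chr11:1572222-1572521): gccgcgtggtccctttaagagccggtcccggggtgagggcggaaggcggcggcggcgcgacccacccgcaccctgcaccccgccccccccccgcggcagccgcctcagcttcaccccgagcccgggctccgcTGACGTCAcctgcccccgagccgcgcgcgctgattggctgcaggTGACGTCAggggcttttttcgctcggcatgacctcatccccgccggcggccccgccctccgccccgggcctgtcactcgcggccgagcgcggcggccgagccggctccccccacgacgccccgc
DUSP6 (chr12:89352452-89352751): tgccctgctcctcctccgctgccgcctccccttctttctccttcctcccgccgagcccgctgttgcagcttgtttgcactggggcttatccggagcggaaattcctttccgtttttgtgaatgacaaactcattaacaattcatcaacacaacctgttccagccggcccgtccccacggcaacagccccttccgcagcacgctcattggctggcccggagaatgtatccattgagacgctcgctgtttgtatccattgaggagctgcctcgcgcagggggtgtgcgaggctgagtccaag
These windows were 73.3%, 78.3% and 58.3% G and C respectively, with a median of 58.7% over all promoters. The DUSP6 window lies wholly inside the GENCODE gene (89347232 to 89353271), and the DUSP8 window wholly before its gene (1554044 to 1571920). For both genes the RefSeq start thus differs from the first base of the GENCODE gene, and the bases around the latter were not searched. DUSP1 and DUSP8, the members with a response element, were both called higher. DUSP5, also called higher, and DUSP4, which missed the fold threshold, had no window to search. Whether the element has a part in these changes was not tested.

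DUSP5 (ENSG00000138166, chromosome 10, 110497838 to 110511544, plus strand) encodes a nuclear phosphatase that binds and inactivates ERK only. It was the most abundant member in every library, at 163, 141 and 134 FPKM in DMSO and 279, 370 and 403 FPKM after MPM-1. In CPM these were 417, 350 and 333 in DMSO and 792, 1009 and 1124 after MPM-1, with no overlap. The rise was 2.66-fold (log2 fold change 1.41 with a standard error of 0.13, adjusted p = 2.43e-05 by edgeR). DUSP5 already stood at the 96.1 percentile of FPKM in DMSO, and its mean went from 146 to 351 FPKM, whereas that of DUSP1 went from 8.40 to 63.1 FPKM.

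DUSP4 encodes MKP-2, another nuclear phosphatase of ERK and JNK (ENSG00000120875, chromosome 8, 29333064 to 29350668, minus strand). It stood at 84.7, 65.2 and 61.8 CPM in DMSO and at 103, 163 and 144 CPM after MPM-1. The groups did not overlap, but MPM-1 replicate 1 was close to DMSO replicate 1. The log2 fold change of 0.96 (95% confidence interval 0.57 to 1.34, adjusted p = 0.00108 by edgeR) passed on p and missed the fold threshold. Of 15 alternative fits it was past both in only 2, without DMSO replicate 1 (1.11) and without MPM-1 replicate 1 (1.14). The log2 fold change was 0.84 without MPM-1 replicate 2 and 0.81 with scaling by library size alone.

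DUSP2 (ENSG00000158050, chromosome 2, 96143166 to 96145440, minus strand), known as PAC-1 and best known from activated lymphocytes, was the nuclear member without a detectable change. Its libraries overlapped, at 8.28, 7.87 and 7.93 CPM in DMSO and 7.84, 8.62 and 8.49 CPM after MPM-1. The log2 fold change was 0.051 with a 95% confidence interval of -0.28 to 0.39 (adjusted p = 0.790 by edgeR), and its sign turned with scaling by library size alone (-0.098). The inducible nuclear members therefore did not move as one, since the upper bound for DUSP2 lay below the lower bounds of DUSP1 (2.62), DUSP4 and DUSP5 (1.11).

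**Figure D2:**
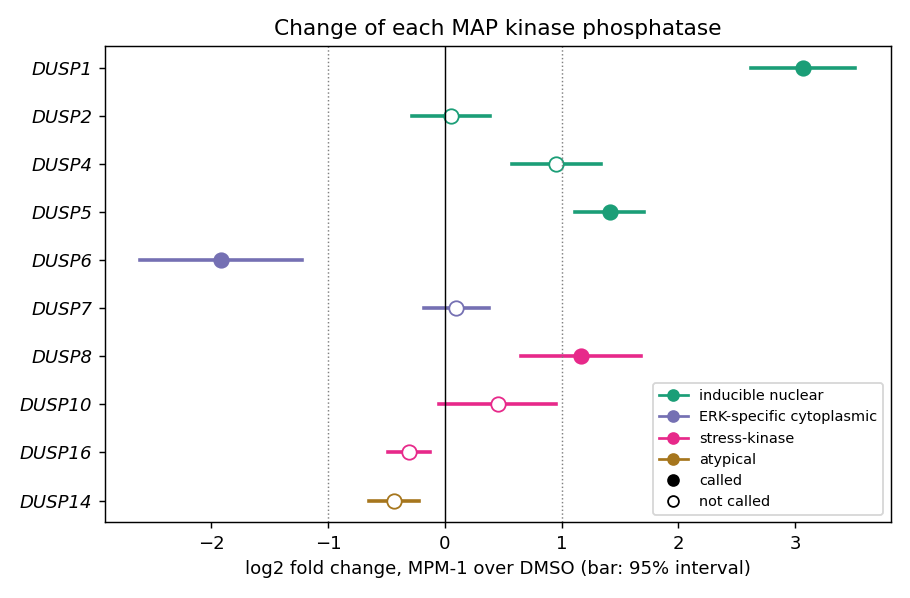
Log2 fold change of MPM-1 over DMSO for each member, coloured by role, with its 95% confidence interval, filled where called, and dotted lines at the fold threshold of 1. DUSP1 lies at 3.07 and DUSP6 at -1.91, and the intervals of DUSP2, DUSP7 and DUSP10 include 0.

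DUSP6 (ENSG00000139318, chromosome 12, 89347232 to 89353271, minus strand) encodes MKP-3, the cytoplasmic ERK phosphatase whose transcript is a widely used gauge of ERK activity. It had 148, 184 and 175 CPM in DMSO and 21.4, 64.4 and 49.1 CPM after MPM-1. The groups were well apart, and MPM-1 replicate 1 was the lowest. The fall was 1.91 on the log2 scale (log2 fold change -1.91, standard error 0.31, adjusted p = 0.000619 by edgeR), a 3.76-fold decrease that ranked 339 among falls. Its libraries after MPM-1 were the most scattered of any member in relation to their mean (45.0 ± 21.8 CPM, SD, n = 3). Without MPM-1 replicate 1 the log2 fold change was -1.56, and it was still called.

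DUSP7 (ENSG00000164086, chromosome 3, 52048919 to 52056550, minus strand), the close relative of DUSP6, showed no such fall. Its levels were 17.6, 18.3 and 16.9 CPM in DMSO and 16.3, 19.5 and 20.8 CPM after MPM-1, and the groups overlapped. The log2 fold change was 0.10 (95% confidence interval -0.18 to 0.38, adjusted p = 0.513 by edgeR), and its sign turned when libraries were scaled by their totals only (-0.050). A decrease of the size seen in DUSP6, whose interval ran from -2.60 to -1.22, lay outside the interval of DUSP7.

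The stress-kinase members also differed from one another. DUSP8 (ENSG00000184545, chromosome 11, 1554044 to 1571920, minus strand), a phosphatase of JNK and p38, was a low transcript at 10.7, 7.18 and 5.32 CPM in DMSO (353, 310 and 212 counts). After MPM-1 it reached 18.4, 16.1 and 17.5 CPM (562, 495 and 588 counts), above all DMSO libraries. Its log2 fold change was 1.17 with a standard error of 0.23 (adjusted p = 0.00195 by edgeR). This call was near both thresholds and was lost without DMSO replicate 2 (adjusted p = 0.0108 by edgeR) and without DMSO replicate 3 (log2 fold change 0.96), and it was 1.47 without DMSO replicate 1.

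DUSP10 (ENSG00000143507, chromosome 1, 221701424 to 221742176, minus strand) encodes MKP-5, which prefers JNK and p38. It was measured at 6.28, 7.69 and 6.73 CPM in DMSO and at 8.63, 7.12 and 12.6 CPM after MPM-1, with overlapping groups. MPM-1 replicate 3 was the highest, and MPM-1 replicate 2 lay within the DMSO range. The log2 fold change was 0.45 (95% confidence interval -0.045 to 0.95, adjusted p = 0.109 by edgeR), and it was 0.21 without MPM-1 replicate 3 and 0.64 without MPM-1 replicate 2 (adjusted p = 0.427 and 0.0278 by edgeR).

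DUSP16 (ENSG00000111266, chromosome 12, 12474210 to 12562383, minus strand) encodes MKP-7, a JNK phosphatase that shuttles between nucleus and cytoplasm. It went from 74.9, 72.3 and 66.2 CPM in DMSO to 59.6, 58.2 and 54.4 CPM after MPM-1. The groups were apart by a small margin. The log2 fold change of -0.31 (95% confidence interval -0.49 to -0.13, adjusted p = 0.00883 by edgeR) was below the fold threshold in size, and its adjusted p by edgeR was 0.0509 without MPM-1 replicate 3.

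The atypical member DUSP14 (ENSG00000276023, chromosome 17, 37489831 to 37513501, plus strand), also called MKP-6, was likewise lower by less than the fold threshold. It had 39.1, 40.9 and 38.0 CPM in DMSO and 27.3, 32.2 and 27.6 CPM after MPM-1, without overlap. Its log2 fold change was -0.44 (95% confidence interval -0.65 to -0.22, adjusted p = 0.00336 by edgeR). The FPKM of DUSP14 in DMSO replicate 3 was low for its count, with 1.35 times the usual counts per FPKM of this gene, so CPM is the safer scale here.

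DUSP1, DUSP6, DUSP8 and DUSP16 overlap the antisense genes AC022217.3, AC024909.2, KRTAP5-AS1 and AC007619.1 in GENCODE release 29. None of the 4 was in the table. Whether the counting used strand is not given in the sources used here, so reads from such a pair cannot be told apart.

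The opposite changes of DUSP1 and DUSP6 reordered the family. Ranked by mean FPKM in DMSO, the order was DUSP5 (146), DUSP6 (40.2), DUSP14 (23.7), DUSP16 (13.8), DUSP4 (12.99), DUSP1 (8.40), DUSP7 (5.39), DUSP2 (4.84), DUSP10 (2.65) and DUSP8 (1.75). Only the neighbours DUSP16 and DUSP4, and DUSP10 and DUSP8, overlapped in their libraries. After MPM-1 it was DUSP5 (351), DUSP1 (63.1), DUSP4 (22.8), DUSP14 (17.2), DUSP16 (10.0), DUSP6 (9.63), DUSP7 (5.20), DUSP2 (4.51), DUSP8 (3.56) and DUSP10 (3.33). There DUSP4 overlapped DUSP14, DUSP6 overlapped both DUSP16 and DUSP7, DUSP7 overlapped DUSP2, and DUSP8 overlapped DUSP10. DUSP1 thus moved from sixth to second place, and DUSP6 from second to sixth.

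Ratios within a library show the same exchange without dependence on scaling between libraries. Per length, the ratio of DUSP1 to DUSP6 was 0.287, 0.171 and 0.185 in DMSO and 17.2, 3.39 and 6.18 after MPM-1. DUSP6 exceeded DUSP1 in each DMSO library and DUSP1 exceeded DUSP6 in each MPM-1 library, and MPM-1 replicate 1 was the farthest out. For DUSP4 to DUSP6 the ratios were 0.442, 0.278 and 0.273 in DMSO and 3.78, 1.99 and 2.26 after MPM-1. DUSP5 to DUSP6 went from 4.71, 3.23 and 3.18 to 62.3, 26.7 and 38.1.

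Within the ERK-specific pair, DUSP6 to DUSP7 was 6.55, 7.73 and 8.06 in DMSO and 1.02, 2.53 and 1.85 after MPM-1. Against the stress-kinase members, DUSP1 to DUSP10 went from 4.24, 2.48 and 3.01 to 26.3, 17.9 and 14.7. DUSP1 to DUSP16 went from 0.694, 0.528 and 0.601 to 7.53, 4.52 and 6.89. In each of these 6 pairs the libraries of the treatments did not overlap. Every pair holds DUSP1 or DUSP6, the members with the largest rise and fall. The separation therefore largely restates the values of these genes, and other pairs were not computed. No p-value is attached to the ratios, because an exact permutation test of 3 libraries against 3 cannot go below 0.1.

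**Figure D3:**
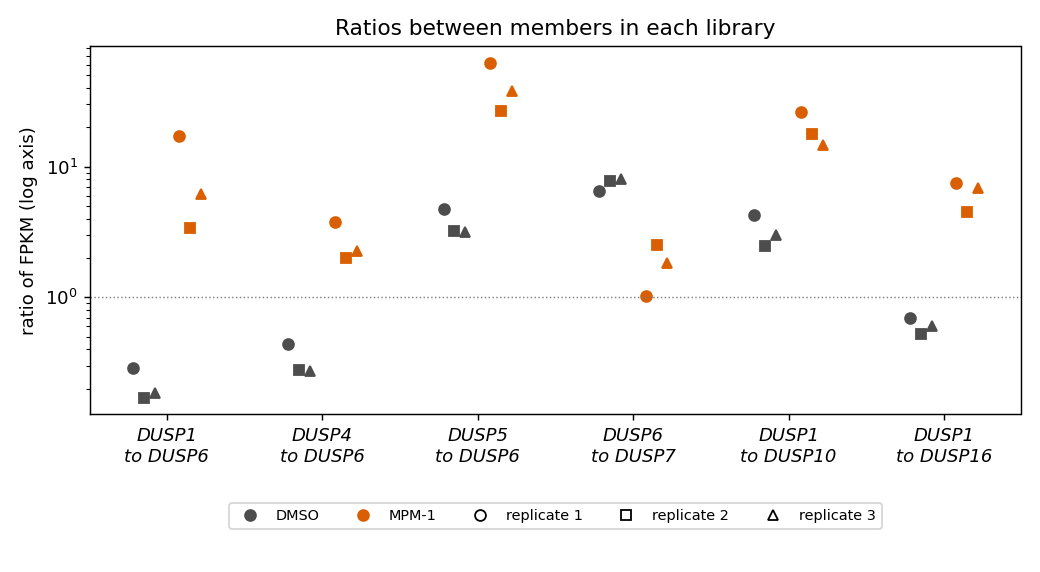
Ratio of FPKM (log axis) between 6 pairs of members in each library, DMSO in grey and MPM-1 in orange, with a symbol per replicate and a dotted line at 1. DUSP1 to DUSP6 lies between 0.171 and 0.287 in DMSO and between 3.39 and 17.2 after MPM-1.

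Summed over the 10 members, FPKM was 277, 262 and 241 in DMSO and 419, 504 and 547 after MPM-1. DUSP5 made up 54.1% to 58.8% of this sum in DMSO and 66.6% to 73.7% after MPM-1. DUSP6 made up 12.5% to 17.5% and then 1.07% to 2.75%, whereas DUSP1 made up 2.87% to 3.58% and then 9.32% to 18.4%. DUSP14 and DUSP16 also took smaller shares in every MPM-1 library than in any DMSO library, at 2.98% to 3.85% and 1.74% to 2.44%. The share of DUSP4 did not separate the treatments (4.66% to 5.52% in DMSO, 4.05% to 5.47% after MPM-1).

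**Figure D4:**
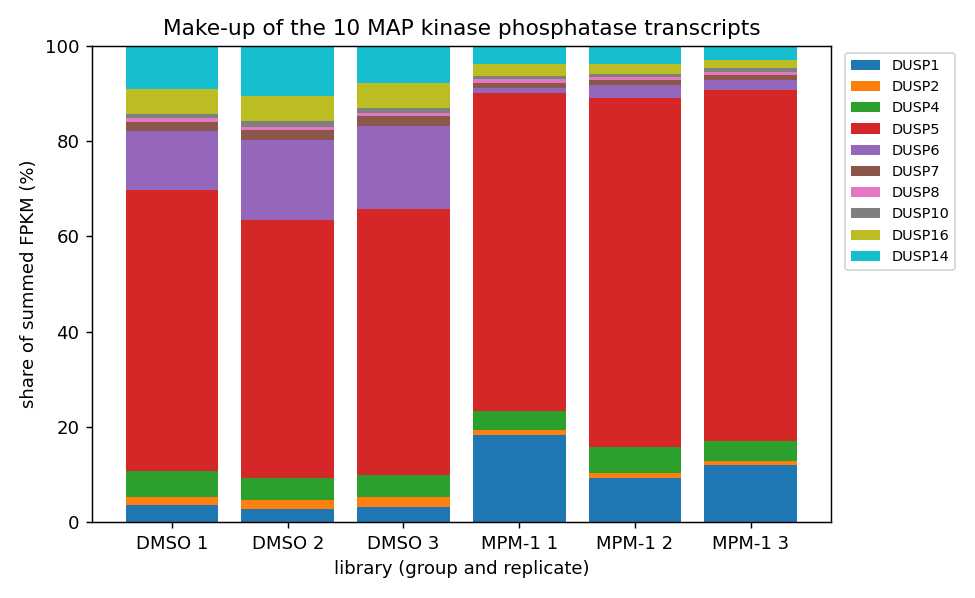
Share of each member in the summed FPKM of the 10 members (%), stacked to 100 for each library. DUSP5 takes over 54% everywhere, DUSP6 goes from at least 12.5% to at most 2.75%, and DUSP1 goes from at most 3.58% to at least 9.32%.

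The genes whose profile over the 6 libraries was most like that of DUSP1 were found by the smallest root-mean-square difference of centred log2 CPM among 12379 genes. They were SLC2A3, a glucose transporter (difference 0.125), VGF, a secreted neuropeptide precursor (0.143), and ETS1, a transcription factor (0.148). ETS1, for example, had 1.76, 1.48 and 1.53 CPM in DMSO and 16.8, 12.8 and 15.2 CPM after MPM-1, so that MPM-1 replicate 2 was the lowest treated library for ETS1 as for DUSP1. For DUSP6 they were PAQR8 (0.0638), MED18, a Mediator subunit (0.0973), and DDX28, a mitochondrial RNA helicase (0.131). PAQR8 had 10.2, 11.6 and 11.0 CPM in DMSO and 1.44, 4.45 and 3.31 CPM after MPM-1, with replicate 1 again the lowest. These are the nearest of many genes by this measure, and all share the 6 libraries.

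Other genes of the pathway were counted from lists written from general knowledge, but with earlier results of these data known. The counts are therefore descriptions and not independent of the data. Among 12 other dual-specificity phosphatases in the table, 2 rose and 2 fell, with a median log2 fold change of 0.34, where 5.58% of all genes were called higher and 8.75% lower. With the fold disregarded and the adjusted p limit at 0.05, 6 were higher and 3 lower, where 27.7% of all genes were higher and 28.8% lower. DUSP9, the third ERK-preferring cytoplasmic phosphatase, also fell, from 16.98, 11.8 and 9.29 CPM to 4.10, 3.54 and 4.94 CPM. Its log2 fold change was -1.59 with a standard error of 0.24 (adjusted p = 0.000450 by edgeR). DUSP19, a small JNK-pathway phosphatase, went from 2.06, 2.15 and 2.94 CPM to 0.394, 0.0976 and 0.179 CPM, close to the level of 3 counts (log2 fold change -3.40, adjusted p = 0.000229 by edgeR). DUSP3 and DUSP12 rose by log2 fold changes of 1.07 and 1.05, both under 1 with scaling by library size alone (0.92 and 0.90), and DUSP3 also without MPM-1 replicate 1 (0.98).

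The kinases themselves were called at shares to be read against the 14.3% of all genes. By the limit without the fold (adjusted p under 0.05 in edgeR's test), 56.5% of all genes passed, 27.7% higher and 28.8% lower. Of 12 MAP kinases, MAPK6, which encodes the atypical kinase ERK3, was called, with 108, 89.5 and 93.3 CPM in DMSO and 222, 170 and 213 CPM after MPM-1. Its log2 fold change of 1.06 was under 1 with scaling by library size alone (0.91) and without MPM-1 replicate 1 (0.999). The other 11 lay between -0.40 and 0.77. By the limit without the fold, 3 of the 12 were higher and 1 lower. Among 10 genes for MAP kinase kinases and RAF kinases only MAP2K6, an activator of p38, was called (log2 fold change 1.72, adjusted p = 0.000164 by edgeR). It went from 1.58, 2.36 and 2.16 CPM to 7.06, 6.34 and 6.73 CPM. Without the fold, 7 of these 10 genes were higher and 1 lower. Their median log2 fold change was 0.36, where that of all genes was -0.026. In the MAP3K family, none of 19 was called higher and 3 were called lower (6 and 5 at an adjusted p under 0.05 in edgeR's test without the fold), with TAOK2 (-1.46) and MAP3K4 (-1.10) the largest, the latter just under the fold threshold without MPM-1 replicate 3. None of 10 MAPK-activated kinases was called in edgeR's test. At an adjusted p under 0.05 without the fold, 3 were higher and 1 lower, to be read against 56.5% of all genes.

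Feedback inhibitors and outputs of ERK signaling were counted next, again to be read against the 14.3% of all genes called. Of 7 Sprouty and SPRED family genes and related inhibitors, ERRFI1, which restrains the EGF receptor, rose (log2 fold change 1.55) and none was called lower. At an adjusted p under 0.05 in edgeR's test without the fold, 1 was higher and 1 lower. Of 11 ERK output transcripts, IER3 (1.36) and FOSL1 (1.03) rose and none was called lower. FOSL1 was under 1 in 4 of the 6 fits that left out a library and with scaling by library size alone (0.89). It was called in 7 of 15 alternative fits. By the same limit without the fold, 4 of this list were higher and 0 lower, where 56.5% of all genes passed. SPRY2 and SPRY4, Sprouty feedback inhibitors picked here after their values were seen, overlapped between treatments. Both genes are counted in the Sprouty list and in the ERK output list. SPRY2 had 33.3, 39.2 and 33.9 CPM in DMSO and 17.5, 47.8 and 41.7 CPM after MPM-1. SPRY4 had 61.4, 63.1 and 59.6 CPM in DMSO and 41.5, 75.3 and 69.5 CPM after MPM-1. In both, as in DUSP6, MPM-1 replicate 1 was the lowest of all libraries. The other MPM-1 libraries were above DMSO in SPRY2 and SPRY4 and below it in DUSP6.

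DUSP1 is usually grouped with the immediate early genes. Of 29 such genes measured, 14 rose and 1 fell, with a median log2 fold change of 0.78, where 5.58% of all genes were called higher and 8.75% lower. With libraries scaled by their totals only, 10 were called higher and 1 lower. At an adjusted p under 0.05 in edgeR's test without the fold, 18 were higher and 3 lower. The shares of all genes by that limit were 27.7% and 28.8%. The list did not move as one, since FOS (log2 fold change -0.042) and EGR1 (0.25) overlapped between treatments. The largest rises were in ATF3 (3.08), a stress-induced member of the ATF family, and GADD45G (2.63), an activator of a MAP3K, and the fall was in MYC (-1.64). IER3, FOSL1, EGR1 and ZFP36 are counted in this list as well as in their own. ATF3 went from 7.91, 4.24 and 4.85 CPM to 51.3, 40.3 and 51.3 CPM, without overlap. Of 6 proteins that bind AU-rich elements and control the decay of short-lived transcripts, ZFP36 (1.34) and ZFP36L1 (1.09) rose, the latter under 1 with scaling by library size alone (0.94) and without MPM-1 replicate 3 (0.99). Of 11 other phosphatases of MAP kinases, only PTPN7, a tyrosine phosphatase of ERK and p38, was called, and it fell (log2 fold change -1.76, adjusted p = 0.00198 by edgeR). Its adjusted p by edgeR was 0.0103 without DMSO replicate 3 and 0.0102 without MPM-1 replicate 3. By the limit without the fold, 2 of the AU-rich list were higher and 1 lower. By the same limit 4 of the other phosphatases were higher and 2 lower. Both lists are to be read against the shares of all genes given above for each limit.

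**Figure D5:**
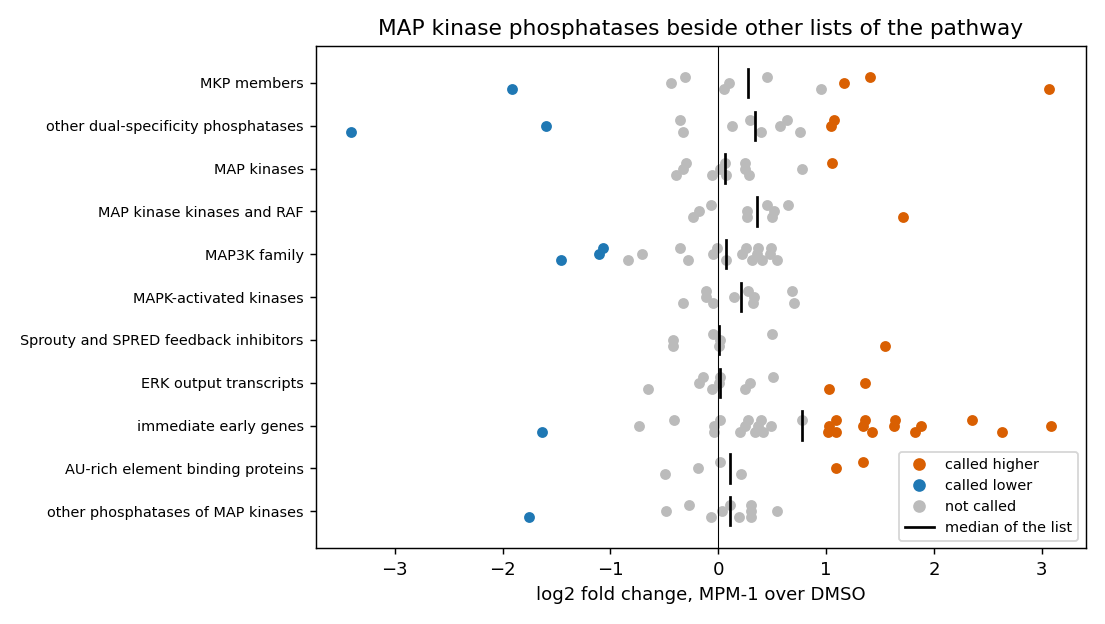
Log2 fold change of each gene in the 10 phosphatases and in 10 further lists of the pathway, with genes called higher in orange, called lower in blue, others in grey, and a black line at the median of the list. The phosphatases range from -1.91 to 3.07, and the immediate early genes have a median of 0.78.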

How the data were processed

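RNA sequencing was performed on 6 libraries of SW480 cells, 3 with DMSO and 3 with MPM-1. Per the labels, total RNA was taken up in TRIzol and libraries were made with an mRNA kit; a sequencing company carried out the first analysis. The authors deposited whole-number counts per gene, without normalization, and FPKM, scaled by length and library size. The submitters' processing notes name HISAT2 and DESeq2 without versions, and the mouse build mm10, although the identifiers are those of human genes; the counting tool and annotation are not given in the sources used here. The deposited p-values (FDR) and log2 fold changes of the authors' own comparison were not used. The smallest total of a gene in the table was 115 counts, and genes outside the table were not analysed here.

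Counts were tested with edgeR 4.0.16 in R 4.3.3 (TMM, filterByExpr, quasi-likelihood, no covariates), with limma 3.58.1 and DESeq2 1.42.0 for alternatives. Standard errors are the log2 fold change divided by the square root of F, and intervals are 95%. The filter removed no gene. Profile likeness used log2 CPM with a prior count of 2 and genes with a mean of at least 50 counts. Positions were taken from GENCODE release 29 (GRCh38) by Ensembl identifier. Intervals take in the spread between these libraries, as the p-values do. The limits from a count of 3 take in counting error alone, and PCR copies were not marked with molecular identifiers. Libraries of one treatment differed by a chi-square of 15.4 to 33.2 per gene, beyond counting noise, so none was treated as a library deposited again; this does not show separate cultures. The numbers shared by DMSO and MPM-1 libraries were not taken to pair them.

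The members and lists were chosen with earlier results of these data known. Named genes are the 10 members, in each list the top 2 called genes by rise and the top 2 by fall, and the 3 genes most like DUSP1 and DUSP6. SPRY2, SPRY4, FOS and EGR1 were named after their values were seen. Alternatives were other scalings and filters, a fit with the replicate number as block, the test of DESeq2, omission of each library in turn, a threshold without fold, and limma on log2(FPKM + 0.1) or log2(FPKM + 1) for genes averaging 1 FPKM or more, or without that filter, a scale that understates changes of low genes. Protein sequences were not used here.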

Additional observations from a re-analysis of the deposited data

How the results depend on the processing

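DUSP1, DUSP5 and DUSP6 kept their direction and their call in all 15 alternative fits, at log2 fold changes of 2.75 to 3.28, 1.24 to 1.56 and -2.24 to -1.56. The fit without the filter on low counts is 1 of these 15 and could not differ from the main fit, since the filter removed no gene. DUSP8 was called in 12 of 15; besides the 2 DMSO libraries named with it, limma on log2(FPKM + 1) gave 0.75. Scaling by library size alone moved the median of all genes from -0.026 to -0.18, and limma on log2(FPKM + 0.1) to -0.15. Of all called genes 39.0% were higher (725 against 1136 lower), 26.8% with library size alone (537 against 1470) and 28.9% with limma on log2(FPKM + 0.1) (445 higher). With limma on log2(FPKM + 1) the counts were 351 and 716. Without a fold threshold, at an adjusted p under 0.05, they were 3596 and 3740, and 3 members were lower. In the pathway lists 20 genes were higher and 7 lower. Library size alone gave 12 higher, limma gave 11 higher with either pseudocount (4 lower with a pseudocount of 1) and 12 without the FPKM filter, and the threshold without fold gave 51 and 18.

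The sign turned only where no call was made. For DUSP2 it was -0.098 with library size alone, -0.10 with limma on log2(FPKM + 0.1), with or without the filter, and -0.086 with a pseudocount of 1. For DUSP7 these were -0.050, -0.059 and -0.049. For SPRY2 they were -0.14, -0.19 and -0.17, and for SPRY4 -0.13, -0.23 and -0.21. With 1 library left out, SPRY2 ranged from -0.23 to 0.35 and SPRY4 from -0.12 to 0.25.

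With the replicate number as a block, SPRY2 was at -0.096 and SPRY4 at -0.024, 712 genes were called higher and 1120 lower, and 3 members were higher and 1 lower. The deviations of same-numbered libraries correlated at 0.0214, 0.114 and -0.0737, and not every library correlated best with its own number. With 3 libraries per treatment, such weak values cannot settle whether same-numbered libraries were handled together. The MPM-1 minus DMSO difference of each log2 ratio between members moved by less than 1 SD between CPM and FPKM, although the ratios themselves differ between these scales, since CPM is not corrected for length.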
